A study of Rattus norvegicus with 6 samples.

Results

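The miR-379/miR-410 cluster is a row of miRNA hairpins in the imprinted Dlk1-Dio3 domain, and it was measured here by miRNA sequencing of the rat lens capsule. Its members were found by name, as every row of the count table that carries the name of a miRNA of the cluster, with the 5p and 3p arms of a hairpin as separate rows. The rule found 62 names from 32 hairpins, of 910 names in the table. The cluster was selected on these same data, because its share of the counted reads was already known to be higher in the libraries from selenite-treated pups than in the control libraries. The values of its members in that contrast are therefore given as a description. How many of them passed the study's thresholds is stated beside the share of all miRNAs that did, no p is given for a member, and these counts support nothing about the cluster.

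The control group was Sprague Dawley rat pups given saline, and the Na2SeO3 group was pups of the same strain given sodium selenite at 20 μmol/kg, a chemical model of cataract. The pups were 8 days old when the model was started, they received the injections under the skin of the nape on days 3, 5, and 7 of the experiment, and the lens was taken on day 15. Total RNA came from the capsular membrane of the lens, with 3 rats in each group and 1 library per rat. The strain, the injection schedule, and the tissue were shared by both groups, and the agent was what set them apart.

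In placental mammals the Dlk1-Dio3 domain is imprinted. Its protein-coding genes are expressed from the paternal chromosome, and its non-coding RNAs, including the miRNAs of this cluster, from the maternal one. The hairpins are cut from long non-coding transcripts and are known above all from brain, placenta, and developing muscle. From each hairpin the 5p or the 3p strand may be kept in the Argonaute protein, and bases 2 to 8 of the strand, its seed, pair with target mRNAs.

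All 62 names matched a mature miRNA in RefSeq (GRCr8), where the 32 hairpins lie at chr6:134543445-134579838, a stretch of 36.394 kb. On it 31 hairpins are on the plus strand, and Mir299b is on the minus strand opposite Mir299. The count table holds no coordinates, and the build behind it is not given in the sources used here. The interval holds 41 annotated miRNA genes, of which 9 carry none of the members, and 2 annotated long non-coding RNAs, LOC102555254 and LOC120103623, overlap it.

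The mature sequences of the members that carry the findings are shown first, from RefSeq (GRCr8), 5′ to 3′, with the seed in capitals. The first set holds both arms of the hairpin with the most reads, and the other members with the highest levels in the control group. The 2 most abundant members, miR-379-5p and miR-411-5p, come from neighbouring hairpins and have different seeds.
miR-379-5p: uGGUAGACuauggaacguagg
miR-379-3p: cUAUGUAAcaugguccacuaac
miR-411-5p: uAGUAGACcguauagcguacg
miR-495: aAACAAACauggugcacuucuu
miR-543-3p: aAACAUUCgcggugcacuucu
miR-541-5p: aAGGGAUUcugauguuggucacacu
miR-323-3p: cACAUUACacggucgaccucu
miR-382-5p: gAAGUUGUucgugguggauucg
miR-382-3p: aAUCAUUCacggacaacacuu
miR-134-5p: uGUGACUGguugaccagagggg

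The second set holds other members with large differences between the groups, miR-376b-3p, whose log2 fold change was below 0, and miR-410-3p, from the last hairpin of the cluster. No pair of these members shares a seed.
miR-412-5p: uGGUCGACcagcuggaaagu
miR-369-5p: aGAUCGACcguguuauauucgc
miR-380-5p: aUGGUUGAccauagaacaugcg
miR-376c-3p: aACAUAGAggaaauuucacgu
miR-376b-3p: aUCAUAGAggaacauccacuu
miR-410-3p: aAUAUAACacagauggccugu

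The third set holds members so alike that the counting could mix them. The listed miR-299b-3p is the first 17 bases of miR-299a-3p, with 0 mismatches, so a short read of one is also a read of the other. Between miR-300-3p and miR-381-3p the difference over 18 bases is G4A, and between miR-376c-5p and miR-376b-5p over 21 bases it is U19G, with positions counted from 1 at the 5′ end of the member named first.
miR-299a-3p: uAUGUGGGacgguaaaccgcu
miR-299b-3p: uAUGUGGGacgguaaac
miR-300-3p: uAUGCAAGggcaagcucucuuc
miR-381-3p: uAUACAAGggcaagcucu
miR-376c-5p: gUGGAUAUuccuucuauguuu
miR-376b-5p: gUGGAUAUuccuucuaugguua

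Counts of miR-299a-3p and miR-299b-3p were 40 and 35, 18 and 17, and 18 and 14 in control libraries 1 to 3. In Na2SeO3 libraries 1 to 3 they were 14 and 14, 29 and 23, and 23 and 21. The shorter name never had more reads than the longer one, and the values of these names cannot be told apart. The G4A pair was counted very unequally, with 61 to 226 reads for miR-300-3p and 2 to 9 reads for miR-381-3p in the 6 libraries.

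The seeds of the members were mostly their own. Of 56 distinct seeds among the 62 members, 5 were shared by 2 or more members. The seed GGUUGUC was shared by miR-494-5p, miR-496-5p, and miR-410-5p, of which none had more than a few reads. The seed UGGAUAU was shared by miR-376b-5p and miR-376c-5p, AUACAAG by miR-381-3p and miR-539-3p, AUGUGGG by the miR-299 3p arms, and GGUUUAC by the miR-299 5p arms. Only 4 seeds were also those of a rat miRNA outside the cluster, among them that of miR-329-3p, which is the seed of miR-362-3p. Outside the seed, the run GGUCCAC stood in 5 of 62 members, the 3p arms of miR-379, miR-411, miR-380, miR-758, and miR-412, and in 0 of 631 other rat miRNAs. Of the members, 46.8% began with A and 30.6% with U, against 25.9% and 47.1% of the 259 other rat miRNAs tested, a set that had to pass a filter on reads, unlike the 62 members.

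The depth differed between the groups. The deposited counts summed to 1806596 to 2829903 in the control libraries and to 663096 to 968151 in the Na2SeO3 libraries. Levels are in CPM after TMM scaling, that is counts scaled to an equal library total with factors that set most miRNAs equal between libraries. On this scale 3 counts of a member corresponded to 1.04 to 1.94 CPM for control libraries and 2.72 to 4.36 CPM for Na2SeO3 libraries, limits that cover counting error only. The counts made up 25.6% to 39.7% of the raw reads of the control libraries and 11.4% to 13.0% of those of the Na2SeO3 libraries. The labelled tissue was checked against 4 miRNAs of lens and surface ectoderm, among them miR-184 and miR-204-5p. These 4 summed to 94592 to 109661 CPM in the control group and 48525 to 60745 CPM in the Na2SeO3 group, with 1 of 4 down-regulated. Most of the control sum was miR-184, with a mean of 81388 CPM. The 3 miRNAs of retina and sensory cells summed to more in the control group, 144754 to 195553 CPM. The check therefore does not show that the tissue was lens capsule alone. The separate libraries are separate rats. The p-values and confidence intervals below, all for arm balance, rest on a spread between rats that was shared over all hairpins tested. They do not measure the spread of 1 hairpin alone.

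Of the 62 members, 59 had at least 1 read, and 44 had a read in each of the 6 libraries. The 3 members listed at 0 in every library were miR-299b-5p, miR-544-5p, and miR-758-5p. After the filter on low counts 37 members remained, and the 25 others, with at most 13 reads in any library, were not tested. A member that is high in only 1 group can pass such a filter through that group, so no count over the 37 stands for all 62.

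In the control lens capsule the cluster was present at a low level with a steep order among its members. The members took up 0.383%, 0.358%, and 0.337% of the counted reads in the control libraries, with a mean of 0.360% ± 0.0231 (SD, n = 3). By mean CPM, miR-379-5p held rank 61 of all names, miR-411-5p rank 77, and miR-495 rank 97. A miRNA read covers the whole molecule, so length does not enter CPM, although ligation and amplification can differ between sequences and were not corrected.

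A few strands carried most of the reads. On average miR-379-5p alone made up 22.6% of the member reads of the control libraries, the 3 highest members 46.0%, the 6 highest 62.3%, and the 10 highest 75.4%. In the Na2SeO3 libraries these shares were 27.6%, 47.6%, 64.9%, and 77.5%. By library, miR-379-5p took 21.4%, 22.7%, and 23.8% of the member reads in the control group and 31.2%, 20.2%, and 31.3% in the Na2SeO3 group. Na2SeO3 library 2 was thus below all the control libraries in this share, and the other Na2SeO3 libraries were above them.

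Among the members with the highest control levels, miR-379-5p, miR-411-5p, miR-495, and miR-543-3p followed each other with no overlap between neighbouring ranges. The ranges of miR-543-3p, miR-541-5p, and miR-323-3p overlapped from neighbour to neighbour, so their order was not settled by 3 libraries. The median coefficient of variation over the control libraries was 15.9% for the members tested and 14.0% for the other miRNAs tested.

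The cluster took up a larger share of the counted reads in the Na2SeO3 group. Its share was 0.747%, 0.719%, and 0.705% in the Na2SeO3 libraries, with a mean of 0.723% ± 0.0216 (SD, n = 3) and 2.01 times the control mean. All the Na2SeO3 libraries lay above all the control libraries. Against the raw reads, the share was 0.0855%, 0.0936%, and 0.0829% in the Na2SeO3 group, a mean of 0.0873% ± 0.00559 (SD, n = 3). In the control group it was 0.152%, 0.0944%, and 0.0864%, a mean of 0.111% ± 0.0359 (SD, n = 3). On that scale the groups overlapped and the ratio turned to 0.787, or 0.966 without control library 1, which stood above the rest. The direction of the difference therefore depended on the denominator, and the share of raw reads that were counted as miRNAs moved with the groups. In bulk tissue, fewer cells of a type and less RNA per cell cannot be told apart.

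**Figure D1:**
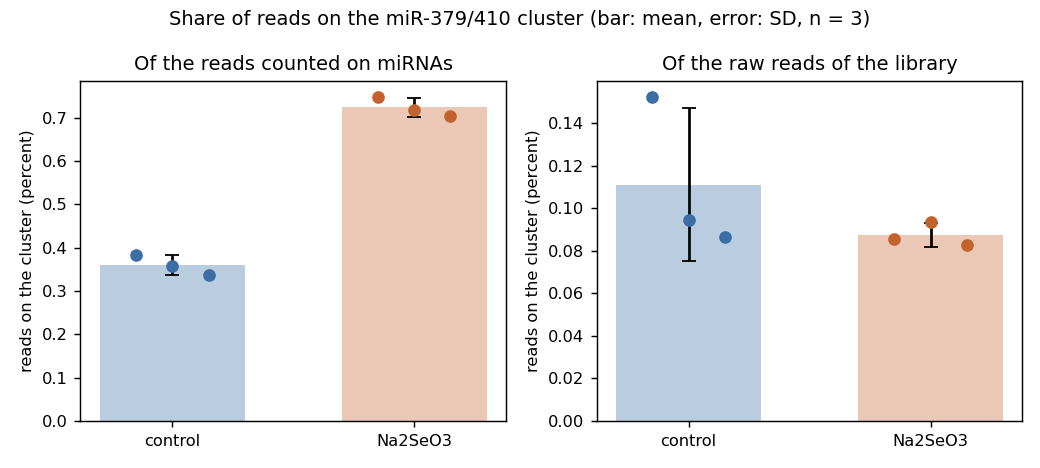
Share of the reads on the 62 members in each library, in percent of the reads counted on miRNAs (left) and of the raw reads (right), with 1 point per library, bars at the group means, and error bars of 1 SD (n = 3). The Na2SeO3 libraries lie at 0.705% to 0.747% and the control libraries at 0.337% to 0.383% on the left, and the groups overlap on the right, where the Na2SeO3 mean is the lower.

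Of the 37 members tested, 36 had a log2 fold change above 0 (Na2SeO3 over control, TMM scale), where 54.8% of all miRNAs tested did. The median log2 fold change was 0.84, from −0.31 to 1.38, against 0.08 over all miRNAs tested and −0.01 over those outside the cluster. With the study's thresholds, a log2 fold change of at least 1 in size at an adjusted p of 0.05, applied here to edgeR's quasi-likelihood test, 12 members (32.4%) were up-regulated DEmiRNAs, where 11.4% of all miRNAs were, and 0 were down-regulated, where 4.99% of all were. By the adjusted p alone, 22 members were up-regulated, where 20.8% of all miRNAs were. In 24 members (64.9%) all the Na2SeO3 libraries lay above all the control libraries, where 25.2% of all miRNAs did, in 0 members they lay below, where 21.1% of all did, and in 13 the groups overlapped. The 12 include both miR-299a-3p and miR-299b-3p, and with miR-299b-3p left out 11 members passed. Because the cluster was chosen on this contrast, nothing is read from these counts about the members.

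Scaled to the raw reads, the same contrast looked different. The median log2 fold change of the members was −0.32, and that of all miRNAs was −1.07. On that scale 0 members passed the thresholds upward, where 1.76% of all miRNAs did, and 3 passed downward, where 51.6% of all did. These were miR-329-5p, miR-376b-3p, and miR-485-3p. The gap between the median of the members and that of all miRNAs was 0.74 with raw reads and 0.76 to 0.77 with the other scalings. A scaling moves all miRNAs of a library by the same factor. This gap could therefore hardly change, and nothing is read from its likeness between scalings. Without control library 1, the median per raw read was 0.05 and 0 members passed downward.

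The most abundant member, miR-379-5p, was at 801, 874, and 937 CPM in control libraries 1 to 3 and at 2251, 1272, and 2128 CPM in Na2SeO3 libraries 1 to 3. Its groups did not overlap, although Na2SeO3 library 2 lay far nearer to the controls than the other Na2SeO3 libraries. The log2 fold change was 1.11 ± 0.21 (SE), or 0.94 without Na2SeO3 library 1, where it no longer passed the fold threshold.

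Its neighbour miR-411-5p was at 567, 486.8, and 604 CPM in the control group and at 821, 776, and 793 CPM in the Na2SeO3 group. The Na2SeO3 libraries were close to each other and above the controls, with a log2 fold change of 0.53 ± 0.15 (SE). For miR-495 the control levels were 329.3, 404, and 298 CPM and the Na2SeO3 levels 368, 669, and 444 CPM. Here Na2SeO3 library 2 was the highest, the groups overlapped, and the log2 fold change was 0.53 ± 0.22 (SE), or 0.24 without that library.

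For miR-543-3p the levels were 251, 256, and 187 CPM in the control group and 234, 367, and 187 CPM in the Na2SeO3 group. The groups overlapped, and the log2 fold change of 0.19 ± 0.23 (SE) was smaller than its error. It turned to −0.15 without Na2SeO3 library 2, was 0.056 without control library 3, and was 0.37 without Na2SeO3 library 3. In miR-541-5p the levels were 156, 218.6, and 248 CPM against 539.8, 424, and 392 CPM, with no overlap and a log2 fold change of 1.13 ± 0.20 (SE). In miR-323-3p they were 187, 190, and 193 CPM against 479, 342, and 376.9 CPM. The control libraries of miR-323-3p were within a few CPM of each other, and the log2 fold change was 1.07 ± 0.17 (SE).

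Both arms of miR-382 were above the control range in each Na2SeO3 library. The 5p arm was at 109, 167, and 131 CPM in the control group and at 444, 217, and 323.1 CPM in the Na2SeO3 group, a log2 fold change of 1.27 ± 0.25 (SE). The 3p arm was at 149, 131, and 119 CPM against 173, 178, and 219.8 CPM, a log2 fold change of 0.51 ± 0.18 (SE). The arms were at a like level in the control group, and the 5p arm was the higher in the Na2SeO3 group.

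miR-134-5p, known in neurons as a repressor of the kinase Limk1 in dendritic spines, was at 109, 122, and 127.4 CPM in the control group and at 260.4, 152, and 242 CPM in the Na2SeO3 group. The groups did not overlap, the log2 fold change was 0.87 ± 0.21 (SE), and Na2SeO3 library 2 was again the nearest to the controls. For miR-376b-5p, which was at 119.8, 107, and 113 CPM in the control group and at 103, 199.5, and 131 CPM in the Na2SeO3 group, the groups overlapped. Its log2 fold change was 0.36 ± 0.22 (SE), and 0.048 without Na2SeO3 library 2.

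Large log2 fold changes were found at high and at low levels, and those of miR-382-5p, miR-541-5p, and miR-379-5p are given above. miR-412-5p was at 9.32, 10.9, and 8.41 CPM in the control group and at 29.1, 16.3, and 30.8 CPM in the Na2SeO3 group, from 13 to 28 reads per library, with a log2 fold change of 1.38 ± 0.33 (SE). miR-369-5p was at 68.7, 54.8, and 63.4 CPM against 192, 169, and 109.9 CPM, with 1.32 ± 0.22 (SE). Neither overlapped between the groups, and in miR-369-5p it was Na2SeO3 library 3 that lay nearest to the controls.

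miR-380-5p was at 12.4, 15.5, and 14.2 CPM in the control group and at 26.2, 33.6, and 34.1 CPM in the Na2SeO3 group, a log2 fold change of 1.17 ± 0.26 (SE). miR-376c-3p was at 5.52, 3.62, and 7.76 CPM against 11.6, 17.2, and 7.69 CPM, from 7 to 19 reads per library. Its log2 fold change of 1.16 ± 0.45 (SE) had the widest error of these, its groups overlapped, and it did not pass the thresholds. Without Na2SeO3 library 2 it was 0.77.

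At the other end was miR-376b-3p, the one member tested with a log2 fold change below 0. Its levels were 33.8, 25.8, and 34.9 CPM in the control group and 13.1, 33.6, and 27.5 CPM in the Na2SeO3 group. The groups overlapped, the low value was that of Na2SeO3 library 1 with 9 reads, and the log2 fold change was −0.31 ± 0.30 (SE). It was −0.073 without Na2SeO3 library 1 and −0.61 without Na2SeO3 library 2. The sequence of this arm differs from that of miR-376a-3p by A4G, C13A, and U20G, counted from the 5′ end of miR-376b-3p.

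Of the other members with the smallest differences, miR-485-3p was at 30.7, 34.6, and 37.5 CPM in the control group and at 37.8, 39.9, and 31.9 CPM in the Na2SeO3 group, a log2 fold change of 0.10 ± 0.22 (SE). miR-329-5p was at 54.9, 43.9, and 67.2 CPM against 48.0, 56.2, and 73.6 CPM, with 0.11 ± 0.23 (SE). miR-379-3p was at 35.2, 39.3, and 37.5 CPM against 34.9, 49.9, and 44.0 CPM, with 0.22 ± 0.22 (SE). In each of these the groups overlapped, while the 5p arm of miR-379 was apart. With 1 library left out the values ran from 0.020 to 0.19 for miR-485-3p, from −0.078 to 0.26 for miR-329-5p, and from 0.086 to 0.30 for miR-379-3p. The lowest were those without control library 1, Na2SeO3 library 3, and Na2SeO3 library 2, in that order, and miR-329-5p was also below 0 without control library 2, at −0.030.

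The 2 hairpins that name the cluster sit at its ends. From miR-410, the 3p arm was at 43.8, 35.1, and 50.4 CPM in the control group and at 65.5, 98.0, and 86.8 CPM in the Na2SeO3 group. The groups did not overlap, and the log2 fold change of 0.96 ± 0.22 (SE) lay just under the fold threshold. The 5p arm of miR-410 had 0 reads in each control library and 2, 1, and 0 reads in the Na2SeO3 libraries, all below 3 counts, so no fold is given.

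The other members past the thresholds were miR-409a-5p, miR-409a-3p, miR-380-3p, miR-299a-3p, and miR-299b-3p, with log2 fold changes of 1.04 to 1.10. The 12 members past them had log2 fold changes from 1.04 to 1.38, the lowest of them miR-299a-3p, and just below the fold threshold lay miR-410-3p. Of the 12, miR-369-5p and miR-380-5p passed whichever library was left out. Left out one at a time, control library 1 cost the calls of miR-409a-3p, miR-412-5p, and miR-541-5p, and Na2SeO3 library 1 those of miR-323-3p, miR-379-5p, miR-382-5p, miR-409a-3p, and miR-541-5p. The calls of miR-299a-3p and miR-380-3p were lost without control library 2, without control library 3, and without Na2SeO3 library 2. Those of miR-299b-3p went with control library 2, control library 3, or Na2SeO3 library 3, that of miR-409a-5p with control library 2, and those of miR-299a-3p and miR-412-5p with Na2SeO3 library 3. Calls were also gained, of miR-487b-3p without control library 2, of miR-410-3p without control library 3 and without Na2SeO3 library 1, of miR-496-3p without Na2SeO3 library 1, and of miR-134-5p without Na2SeO3 library 2.

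**Figure D2:**
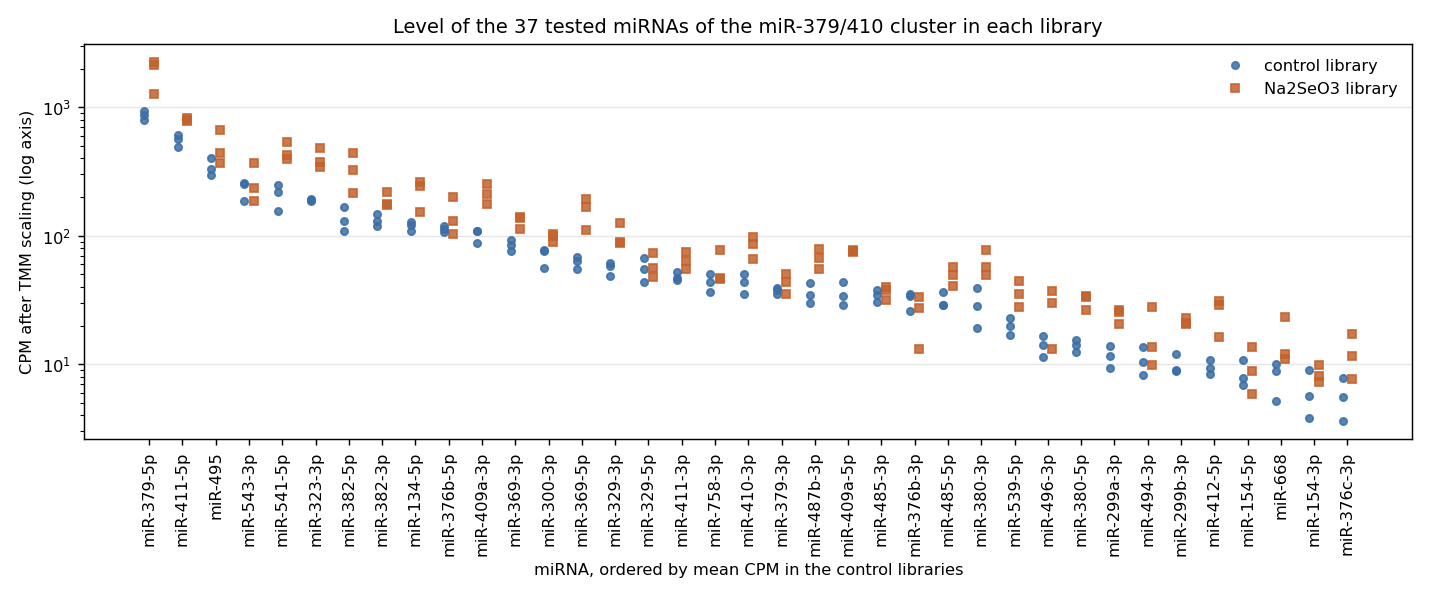
Level of the 37 tested members in each library, in CPM after TMM scaling on a log axis, ordered by the control mean, with 1 circle per control library and 1 square per Na2SeO3 library. The levels fall from 801 CPM and more for miR-379-5p to under 20 CPM for miR-376c-3p. In 24 members all the squares lie above all the circles, as in 25.2% of all miRNAs tested, a direction that depends on the scaling, since the median log2 fold change per raw read was −0.32, or 0.050 without control library 1.

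By arm, the 14 tested 5p strands had a median log2 fold change of 0.99, with 7 past the thresholds, and the 21 tested 3p strands one of 0.63, with 5 past them, where 11.4% of all miRNAs passed upward. The 2 remaining tested members, miR-495 and miR-668, carry no arm in their names. Along the cluster, the 19 tested members of the first 16 hairpins had a median of 0.53, and the 18 of the last 16 hairpins one of 0.89, with 6 past the thresholds in each, to be read beside the same 11.4%. Spearman's rho between the order of the hairpins and the log2 fold change was 0.21 over 37 members, given as a description, since neighbours come from the same transcripts and the same libraries. Between the control level and the log2 fold change rho was −0.09.

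**Figure D3:**
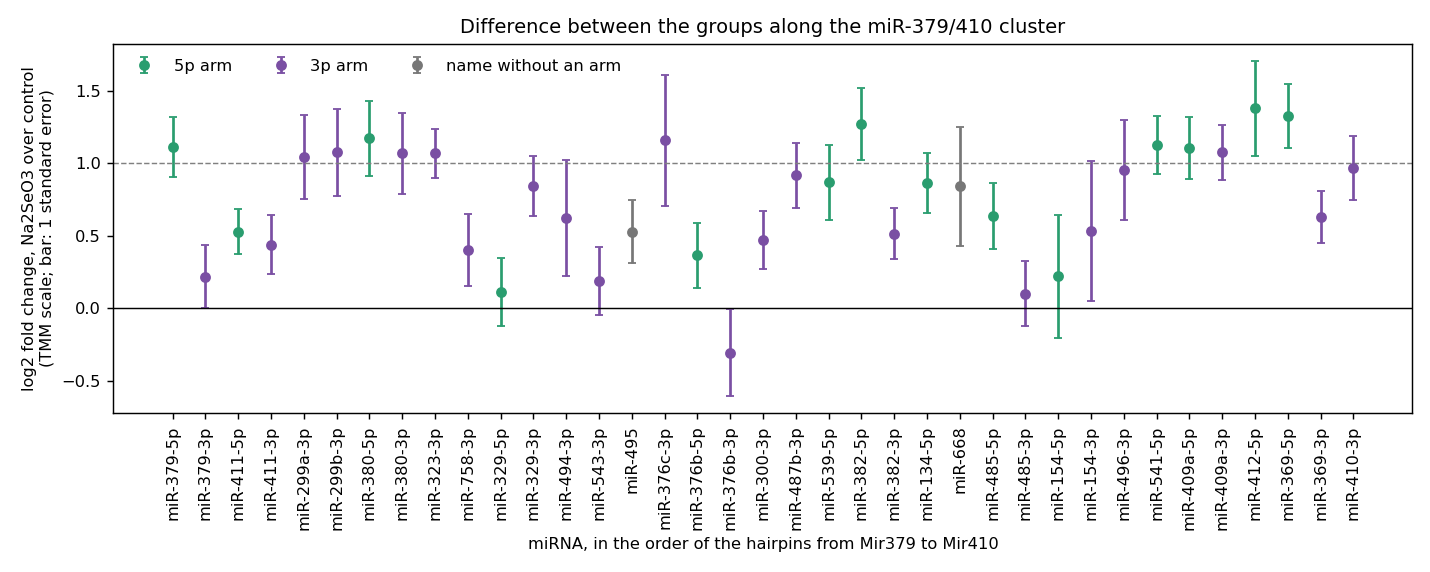
Log2 fold change (Na2SeO3 over control, TMM scale) of the 37 tested members in the order of their hairpins from Mir379 to Mir410, with bars of 1 standard error, coloured by arm, and a dashed line at the fold threshold of 1. Only miR-376b-3p lies below 0, at −0.31, and arms of 1 hairpin can lie apart, as those of miR-379 do at 1.11 and 0.22. Per raw read 6 of the 37 members lie above 0, as do 29 of all miRNAs tested, and the count of members rests on control library 1, since without it 19 of the 35 members then tested do.

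The choice of the strand can be compared within a hairpin and a library, where a shift of the whole hairpin and the scaling cancel. Both arms were named for 30 hairpins, and 25 of them had at least 50 reads over the control libraries. In 4 of the 25, miR-134, miR-379, miR-411, and miR-541, the 5p arm took more than 90% of the reads in every library. In 9 the 3p arm did, among them miR-543, miR-323, miR-300, and miR-410. The 9 include miR-299b, whose 3p reads cannot be told apart from those of miR-299a-3p, so its arm use is not settled. In 6 hairpins neither arm had more than 50% in every library. A hairpin of the cluster thus used mainly 5p, mainly 3p, or both arms, with no common side.

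For 10 member hairpins both arms passed the filter, and the balance was tested with edgeR's quasi-likelihood test of the arm-by-group term, adjusted over 73 hairpins of the whole table. It rests on the same 6 libraries. None of the 10 passed (0 of 10), where 1.37% of all 73 did. At an unadjusted p of 0.05, 5 of the 10 and 13 of the 73 did. With limma on the log2 ratio of the arms, 0 of the 10 passed and 5 were at an unadjusted p of 0.05. In 8 of the 10 the 5p arm was relatively higher in the Na2SeO3 group, as it was in 35 of the 73.

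The 5p arm of miR-379 made up 95.8%, 95.7%, and 96.2% of the reads of its hairpin in the control group and 98.5%, 96.2%, and 98.0% in the Na2SeO3 group. Na2SeO3 libraries 1 and 3 were above the controls, and library 2 was level with the highest of them. The log2 ratio of 5p to 3p was higher by 0.84 (95% confidence interval 0.22 to 1.45) in the Na2SeO3 group, with an adjusted p of 0.122 in edgeR's quasi-likelihood test.

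In miR-382 the 5p arm made up 42.2%, 56.1%, and 52.3% of the reads in the control group and 71.9%, 54.9%, and 59.5% in the Na2SeO3 group. The groups overlapped through Na2SeO3 library 2. The log2 ratio was higher by 0.72 (95% confidence interval 0.17 to 1.26), with an adjusted p of 0.122 (edgeR). Without Na2SeO3 library 2, both hairpins passed, miR-379 with a difference of 1.24 and an adjusted p of 0.011 and miR-382 with 0.94 and an adjusted p of 0.0244 (edgeR), so the call for both rests on that library. Without it 9 hairpins of the whole table passed, against 1 with it.

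In miR-369 the 5p arm made up 41.7% to 42.8% in the control group and 44.2% to 62.9% in the Na2SeO3 group, with no overlap and an adjusted p of 0.197 (edgeR). In miR-329 the order was the opposite, with 42.9% to 58.1% against 31.0% to 45.3%. The log2 ratio was lower in the Na2SeO3 group by a difference of −0.72 (95% confidence interval −1.34 to −0.09), with an adjusted p of 0.197 (edgeR). In miR-411, the second most abundant hairpin, the 5p arm stayed at 91.3% to 93.7% in all 6 libraries, and the difference was 0.10 (95% confidence interval −0.49 to 0.68).

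**Figure D4:**
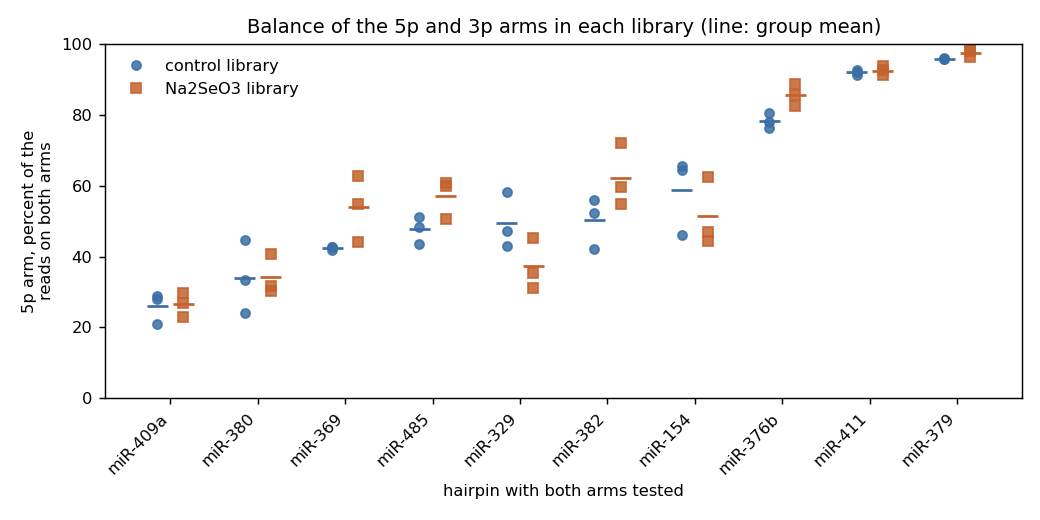
Share of the 5p arm in the reads on both arms, in percent, for the 10 hairpins with both arms tested, with 1 point per library and a line at each group mean. The hairpins lie between 21.0% in 1 control library of miR-409a and 98.5% in 1 Na2SeO3 library of miR-379, and none of the 10 differed between the groups after adjustment.

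The Na2SeO3 libraries differed among themselves in a way that crossed the members. Compared with the mean of libraries 1 and 3 on the log2 CPM scale, library 2 was lower in 16 of the 37 members and higher in 21. The lowest was miR-412-5p at −0.82, followed by miR-382-5p at −0.80, miR-379-5p at −0.78, and miR-134-5p at −0.71. The highest were miR-496-3p at 0.87, miR-154-5p at 0.81, miR-543-3p at 0.81, and miR-376c-3p at 0.78.

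These differences went with the base composition of the member. Spearman's rho between GC content and the difference of library 2 was −0.53 over the 37 members and −0.25 over 259 other rat miRNAs tested. It is a description over names that share the libraries. Between GC content and the log2 fold change of the groups, rho was 0.15 over the members and 0.12 over the others. The median GC content was 45.5% for the members tested and 45.5% for the others. It was 47.7% for the 12 members past the thresholds and 42.9% for the 25 tested and not past them. The part of GC content in the values of the members was not tested.

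**Figure D5:**
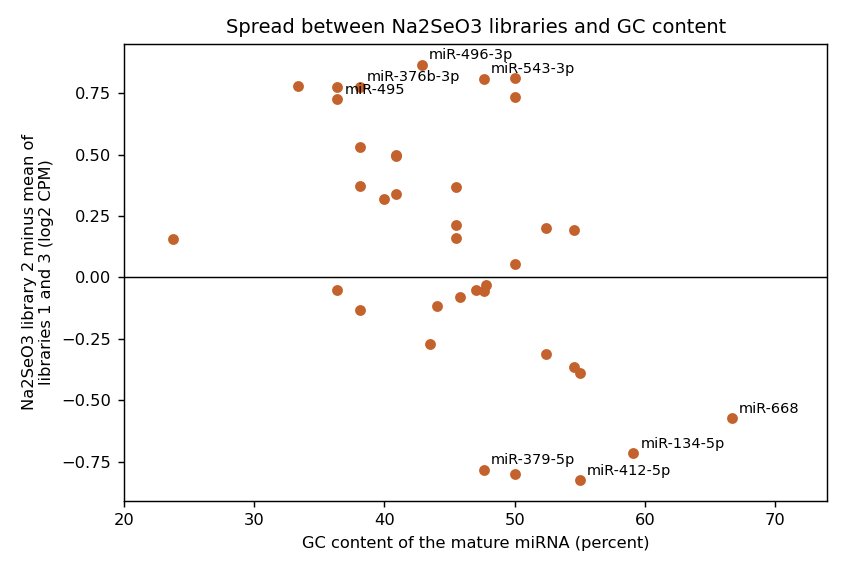
Difference between Na2SeO3 library 2 and the mean of Na2SeO3 libraries 1 and 3 (log2 CPM) against the GC content of the mature sequence in percent, with 1 point for each of the 37 tested members. The points run from miR-496-3p at 0.87 to miR-412-5p at −0.82, and members rich in GC lie mostly below 0.

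The remaining miRNAs of the interval and of the domain were looked at beside the members. In the interval but outside the name rule, miR-1193-3p had 22, 12, and 9 reads in the control group and 5, 26, and 16 in the Na2SeO3 group, with a log2 fold change of 1.33 ± 0.41 (SE). It passed the thresholds, although its groups overlapped in CPM. miR-6331 had 24 to 36 reads in the control group and 13 to 18 in the Na2SeO3 group, with a log2 fold change of 0.31 ± 0.30 (SE). Also in the interval, miR-409b, miR-3576, miR-3578, miR-3579, miR-3592, and miR-3595 were at 0 in every library. The domain's miRNAs that are no members were also listed by name, among them miR-127 and miR-434, and also miR-666 and miR-1193, which lie in the interval. Of these 32 names 16 were tested, 16 of 16 had a log2 fold change above 0 with a median of 1.32, where 54.8% of all miRNAs tested were above 0, and 10 were up-regulated, where 11.4% of all were. Their summed level was 5156 to 6509 CPM in the control group and 11351 to 13379 CPM in the Na2SeO3 group, and their difference from the members was not tested.

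Markers of other tissues were read beside the cluster. The 5 glial miRNAs summed to 68.5 to 78.5 CPM in the control group and 138 to 152 CPM in the Na2SeO3 group, with 1 of 3 tested up-regulated, miR-219a-2-3p, whose mean went from 4.12 to 78.4 CPM. Glial miR-338-3p was the other way round, at 20.2 to 29.1 CPM in the control group and 7.27 to 19.95 CPM in the Na2SeO3 group, without passing the thresholds. The 7 miRNAs of skeletal and heart muscle summed to 7245 to 8792 CPM and 13474 to 14582 CPM, with 1 of 5 tested up-regulated, miR-206-3p. Muscle miR-499-5p was the other way round, at 646 to 875 CPM in the control group and 399 to 639 CPM in the Na2SeO3 group, without passing the thresholds. The 4 erythroid miRNAs summed to 254 to 306 CPM and 403 to 518 CPM, with 1 of 3 tested up-regulated, miR-486. Of the erythroid miRNAs, miR-451-5p was at 117 to 140.0 CPM and 113 to 162 CPM, with overlapping groups. In the 6 neuronal miRNAs, at 35097 to 42180 CPM and 40530 to 50865 CPM, 0 of 5 tested passed, and 3 had a log2 fold change above 0. Most of the sum was miR-9a-5p, at 24280 to 32142 CPM and 30929 to 42470 CPM, with overlapping groups. Neuronal miR-129-5p was the other way round, at 4719 to 5491 CPM in the control group and 3441 to 4164 CPM in the Na2SeO3 group.

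For retina and sensory cells (3 miRNAs), the sums were 144754 to 195553 CPM in the control group and 186156 to 195552 CPM in the Na2SeO3 group, with 0 of 3 past the thresholds. For endothelium (2 miRNAs) they were 20568 to 26048 CPM and 25181 to 30491 CPM, with 0 of 2 past them. For leukocytes (5 miRNAs) they were 153 to 190.2 CPM and 122 to 180.2 CPM, and for mesenchyme and smooth muscle (5 miRNAs) 36081 to 39322 CPM and 23793 to 30532 CPM, with 0 of 5 past them in each. Most of the mesenchymal sum was miR-143-3p, at 30593 to 33540 CPM and 19268 to 24856 CPM. Of these 5 miRNAs 2 had a log2 fold change above 0, among them miR-199a-3p, at 4211 to 4314 CPM and 3614 to 5331 CPM, with overlapping groups. No listed marker was at 0 in every library. The part of these tissues in the higher share of the cluster was not tested.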

How the data were processed

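The miRNA libraries of 3 control and 3 Na2SeO3 rats (lens capsular membrane) were used. The authors filtered reads by Cutadapt and Fqtrim, used FastQC for quality, aligned to the Ensembl rat genome with miRDeep and HISAT2, and deposited raw counts per miRNA name, neither normalized nor pooled. Versions and build are not given in the sources used here. The groups came from the sample titles, where WT was read as control and Model as Na2SeO3, and the treatments came from the study's text.

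Members were found by name, and the members and lists were chosen with earlier results of these data known. Counts were filtered with filterByExpr (minimum count 10), scaled with TMM, and compared in edgeR 4.0.16 (R 4.3.3) by the quasi-likelihood test with group as the only factor, Benjamini-Hochberg adjusted over all miRNAs past the filter. Arm balance was tested in a model of library, arm, and arm by group, with limma 3.58.1 (pseudocount 0.5) as an alternative. DESeq2 1.42.0, other scalings (among them the raw reads that the study lists), other filters, a replicate block, and leaving out each library were the other alternatives. Log2 CPM used a prior count of 2. The procedures were tested on simulated data with log2 changes larger than those of any member or arm balance here. That test does not cover differences of the size reported.

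The members named were the 10 highest in the control group, the 5 highest and 5 lowest log2 fold changes, those going against the median, both arms of miR-379 and miR-410, and both arms of hairpins whose balance passed. Hairpins and members given in sets (sequences, arm shares, GC content) were added after their values were seen. The chi-square between libraries was at least 28.0 per degree of freedom, so none was taken as a copy.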

Additional observations from a re-analysis of the deposited data

How the results depend on the processing

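The count of 12 up-regulated members was 19 with library sizes alone, 7 with the upper quartile, 7 without a filter, 0 with glmTreat against the fold threshold, and 0 per raw read. It was 11 with miR-299b-3p left out, an alternative added after seeing the data. Per raw read 3 members were down-regulated, the median log2 fold change was −0.32, miR-379-5p was at −0.060 and miR-323-3p at −0.10, and the ratio of the shares was 0.787. With control library 1 also left out, an alternative chosen after seeing the data, these were 0 up-regulated and 0 down-regulated members, a median of 0.050, and a ratio of 0.966. Of all miRNAs, 39 were up-regulated and 17 down-regulated. These numbers were 53 and 10 with library sizes alone, 32 and 22 with the upper quartile, 31 and 17 without a filter, 6 and 3 with glmTreat, 6 and 176 per raw read, and 10 and 109 per raw read without control library 1. The cause was not tested.

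For arm balance, 1 of all hairpins passed, 3 with limma, 2 with at least 10 counts in every library, and 0 with a replicate block. Left out one library at a time, 0 to 9 of all hairpins and 0 to 2 member hairpins passed, with the upper values without Na2SeO3 library 2. The up-regulated members then numbered 9 to 11, while 31 to 43 of all miRNAs were up-regulated and 12 to 20 down-regulated. The members then had a median log2 fold change of 0.76 to 0.89 and a ratio of shares of 1.95 to 2.08.

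The libraries share only a number between the groups, not an animal, and deviations of libraries with the same number correlated at −0.17, −0.18, and −0.26, so the numbers were not taken as a pairing. With the replicate number as a block, 12 members were up-regulated and 0 down-regulated, and of all miRNAs 33 and 16. Of 321 values of named members under 17 alternatives, 297 kept their sign, with glmTreat left out because it keeps the same fold changes. At under 20 reads per library, as in miR-376c-3p, depth limits what can be seen, more so in the Na2SeO3 libraries.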
